A study of Homo sapiens with 18 samples.

Results

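Ribosome biogenesis factors are the proteins that build ribosomes but do not stay in them. A list of 49 such genes was followed in HEK293, an established line from human embryonic kidney. The cells overexpressed the murine form of TLR5, through which cells sense bacterial flagellin. The list was chosen by known function and by measured values: RRS1 and GRWD1 had been seen higher with flagellin at 120 min, so differences from mock at 120 min describe the choice, and nothing is supported with them. Of the 49 genes, 44 had an array row that carries their symbol alone, out of 16111 genes tested, and all 44 passed the filter on low values. NOP56 and DKC1 share a row with other genes, and DDX18, GNL3 and EBNA1BP2 are not listed in the annotation used here.

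All 6 groups were the same TLR5 overexpressing line, grown in SILAC medium, in which lysine and arginine were heavy, medium or light. Mock cells got no flagellin. The others got isolated flagellin, either from the probiotic strain E. coli Nissle (EcN) or from Salmonella Typhimurium SL1344 (ST), dosed to match a multiplicity of infection of 10. RNA was taken at 60 and 120 min, and each group had 3 Affymetrix Human Gene ST arrays with the letters A to C, 18 in all. The labels call the letters biological replicates without naming separate cultures, so p-values measure only the spread between these samples. The ST arrays are called ST in their titles but mock in their descriptions, and the titles were followed. Which culture carried which amino acids is not given, so medium and flagellin cannot be told apart.

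Some arrays stood apart from their labels. NFKBIA, an inhibitor and target of NF-kB, lay at log2 levels of 10.15 to 10.85 on the 4 flagellin arrays lettered C and on mock 120 min A, and of 8.09 to 8.82 on the other 13. IFI44L, an interferon-stimulated gene, stood at 2.65 to 3.15 in mock at 60 min and at 2.25 on mock 120 min A, but at 4.84 and 4.83 on mock 120 min B and C, next to 4.80 to 6.55 on the flagellin arrays. The labels were kept. Of 4 HEK293 markers, NEFL (10.38), LHX1 (5.81) and PAX2 (5.68) were present by mean log2 level and NEFM (2.04) was near the array medians of 2.27 to 2.32. Of the markers of other cell types, 1 of 5 leukocyte, 3 of 5 fibroblast and 4 of 5 intestinal genes passed the filter. The highest of each list were CD68 (9.28), LUM (5.53) and LGR5 (8.71), and the intestinal gene CDX2 stood at 5.92. The lowest of each, PTPRC (1.29), DCN (1.40) and KRT20 (1.67), lay below the array medians. The mean level of the leukocyte list ranged over the 6 groups from 3.43 to 3.57, of the fibroblast list from 2.94 to 3.23 and of the intestinal list from 4.13 to 4.38. CD68 was called higher with EcN at 60 min and LGR5 lower, and LUM was lower with ST at 120 min; their part in the results was not tested.

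A ribosome begins in the nucleolus, where RNA polymerase I copies the ribosomal DNA into one long precursor. Small nucleolar ribonucleoproteins modify it, the small subunit processome cuts out and folds the 18S part, and separate factors assemble the large subunit around the 28S, 5.8S and 5S RNAs. Late factors then escort both subunits to the cytoplasm and leave. The genes for these factors are widely expressed, tend to be transcribed together, and include many known targets of the transcription factor MYC.

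After 60 min, 5 of the 44 factors rose over mock with ST flagellin and none fell, whereas with EcN flagellin none was called in either direction. Between ST and EcN directly, 0 factors and 0% of all genes were called at 60 min. Large-subunit factors made up 4 of the 5 that rose with ST: GRWD1, WDR74, NOP2 and MRTO4. The fifth, TSR1, acts on the small subunit. A gene was called at an adjusted p under 0.05 in limma's fit over all 18 arrays, adjusted by Benjamini-Hochberg over all 16111 genes and two-sided. Over all genes, 2.23% were called higher with ST at 60 min and 3.03% lower, and with EcN 3.08% were called higher and 3.37% lower. Before adjustment (p under 0.05) limma gave 11 factors higher and 0 lower with ST, and WDR74 and TSR1 higher and UTP15 and LTV1 lower with EcN. Of the 16111 genes, 1644 were higher and 1975 lower with ST before adjustment, and 2044 higher and 1958 lower with EcN. Neither 60 min comparison entered the choice of the list. The median log2 fold change of the 44 was 0.07 with ST and -0.06 with EcN, against 0.00 and 0.01 over all genes. The ST median was 0.13 without mock 60 min B, and the EcN median 0.01, on the other side of 0, without EcN 60 min B.

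**Figure D1:**
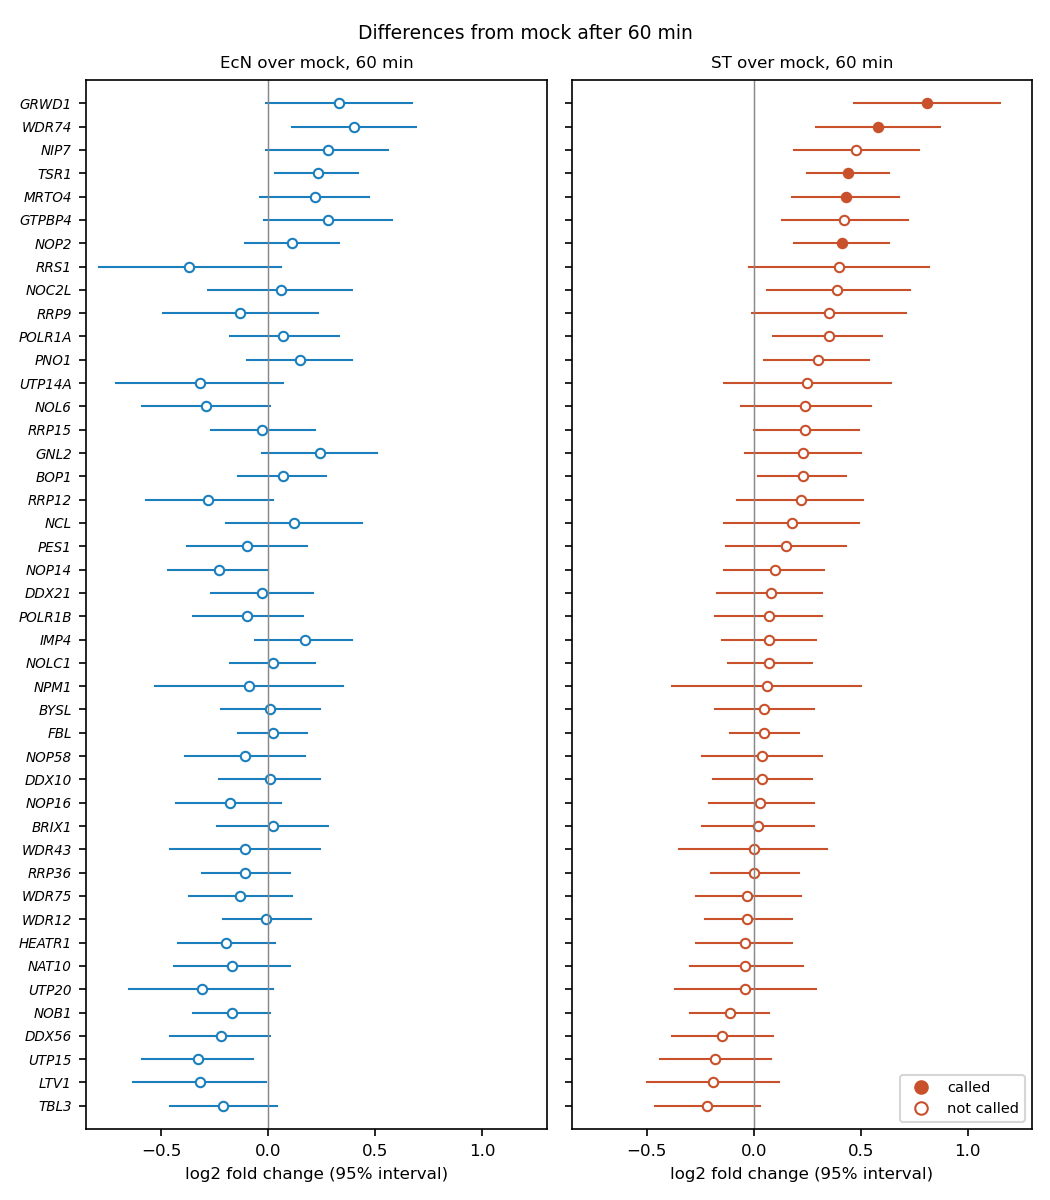
Log2 fold change over mock at 60 min (x axis) for each of the 44 factors, with its 95% interval from the limma fit, for EcN on the left and ST on the right; filled points were called. The genes are in order of the ST value, from GRWD1 at 0.81 to TBL3 at -0.22, and only the ST panel holds filled points.

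GRWD1 (transcript cluster 16863783), a histone-binding WD-repeat protein that also takes part in large subunit assembly, had log2 levels of 8.82, 8.98 and 8.96 in mock at 60 min, of 9.01, 9.35 and 9.39 with EcN, and of 9.84, 9.70 and 9.66 with ST. The 3 groups did not overlap. With ST it rose by 0.81 ± 0.16 (SE, n = 3 arrays per group; 1.75-fold; limma adjusted p = 0.0145). The EcN difference was 0.33 ± 0.16 with a limma adjusted p of 0.219.

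WDR74 (transcript cluster 16739608), a nucleolar partner of the ATPase that releases factors from early large subunits, stood at 6.29, 6.04 and 5.96 in mock, at 6.52, 6.45 and 6.51 with EcN and at 6.79, 6.66 and 6.57 with ST. All 3 ST arrays lay above all EcN arrays, and these above all mock arrays. The rise with ST was 0.58 ± 0.14 (limma adjusted p = 0.0256), and the EcN difference of 0.40 ± 0.14 had a limma adjusted p of 0.0839, the smallest of any factor in that comparison.

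NOP2 (transcript cluster 16760437), the methyltransferase that makes a 5-methylcytosine in 28S rRNA, stood at 8.78, 8.61 and 8.67 in mock, at 8.83, 8.65 and 8.91 with EcN and at 9.18, 9.05 and 9.05 with ST. Its ST arrays overlapped neither other group, while mock and EcN overlapped. It rose with ST by 0.41 ± 0.10 (1.33-fold; limma adjusted p = 0.0327).

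MRTO4 (transcript cluster 16660199), which holds the place of the stalk protein P0 on the unfinished large subunit, stood at 8.14, 8.20 and 8.17 in mock, at 8.24, 8.40 and 8.51 with EcN, and at 8.62, 8.51 and 8.67 with ST. EcN array C equalled the lowest ST array to the second decimal. The rise with ST was 0.43 ± 0.12 (1.35-fold; limma adjusted p = 0.0478), the nearest of the 5 to the threshold.

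TSR1 (transcript cluster 16839582), a GTPase-like protein that blocks early translation by the maturing small subunit, stood at 8.66, 8.71 and 8.65 in mock, at 8.90, 8.80 and 8.98 with EcN and at 9.14, 9.14 and 9.06 with ST. As for WDR74, the groups were stacked with no overlap. TSR1 rose with ST by 0.44 ± 0.09 (1.36-fold; limma adjusted p = 0.0176).

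The ST count depended on single arrays. It was 0 without ST 60 min A or mock 60 min C, 1 without ST 60 min B, ST 60 min C or mock 60 min B, and 7 without mock 120 min B, and the fold change of GRWD1 stayed within 0.76 to 0.84 over all such fits. With all arrays lettered C left out, which leaves 2 arrays per group, none of the 5 was called, while their differences were about as large: 0.86 for GRWD1, 0.57 for WDR74, 0.42 for NOP2, 0.39 for MRTO4 and 0.46 for TSR1.

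**Figure D2:**
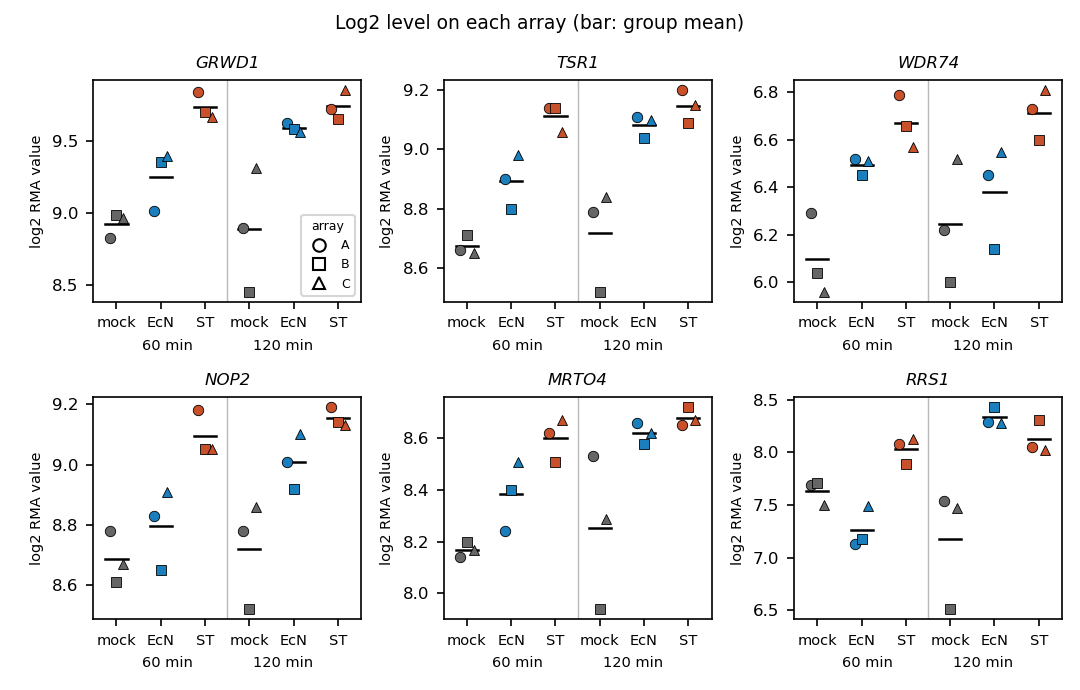
Log2 RMA level (y axis, a separate scale per gene) of the 5 factors called with ST at 60 min and of RRS1 on each array, by group; points are arrays A (circle), B (square) and C (triangle), bars are group means. At 60 min the ST arrays of each gene lie above the mock arrays, and mock 120 min B is the lowest or next to lowest array of each.

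Other large-subunit factors ranked just below. NIP7, a protein needed for correct cutting of the precursor RNA, differed from mock by 0.48 ± 0.14 with ST at 60 min (limma adjusted p = 0.0512), and GTPBP4, a nucleolar GTPase, by 0.42 ± 0.14 (limma adjusted p = 0.0871). On mock 120 min A, B and C, NIP7 stood at 8.89, 8.55 and 9.29. Array C thus lay above its EcN arrays at 60 min (9.09 to 9.23) and among its ST arrays (9.26 to 9.45). Of the 16 large-subunit factors measured, 14 lay above 0 with ST at 60 min with a median of 0.32, and in 11 all 3 ST arrays lay above all 3 mock arrays. Over all 44 factors this held for 18, against 14.2% of all genes. With EcN, 10 of the 16 lay above 0, with a median of 0.06. NOC2L, counted above 0 with both, had a mean log2 level of only 3.26, the lowest of the 44. PES1, BOP1 and WDR12, which form one complex on the early large subunit, differed from mock by 0.15, 0.23 and -0.03 with ST and by -0.10, 0.07 and -0.01 with EcN.

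The 20 small-subunit factors had lower values, a contrast between lists that was not tested. With ST at 60 min 11 of 20 lay above 0 with a median of 0.02, and TSR1 was the 1 called. With EcN 15 of 20 lay below 0, the median was -0.17, and in 9 all EcN arrays lay below all mock arrays, although none was called. Over all 44 factors EcN arrays lay wholly below mock in 12 and wholly above in 7, where 15.2% and 16.7% of all genes did; with ST none lay wholly below, against 15.9% of all genes. UTP15, WDR43, WDR75 and HEATR1, parts of the complex that binds the precursor RNA first, differed from mock by -0.33, -0.11, -0.13 and -0.20 with EcN and by -0.18, 0.00, -0.03 and -0.04 with ST. Among late factors, PNO1, which holds the 3' end of the 18S part, differed by 0.30 ± 0.12 with ST, and NOB1, the nuclease that makes the final cut there, by -0.11 ± 0.08.

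Of the 44 factors, none of the 8 that belong to polymerase I transcription or to the small nucleolar ribonucleoproteins and nucleolar shuttle proteins was called at 60 min, and before adjustment (p under 0.05) POLR1A with ST was the 1 that passed. POLR1A, the largest subunit of the polymerase, differed from mock at 60 min by 0.35 ± 0.12 with ST (limma adjusted p = 0.101) and 0.07 with EcN, but a second row for the same gene gave -0.32 and -0.49, so its direction is uncertain. POLR1B, the next largest subunit, and DDX21, a helicase of the nucleolus, stood at 0.07 and 0.08 with ST. The 5 snoRNP and nucleolar shuttle proteins lay between 0.04 and 0.18 with ST and between -0.11 and 0.12 with EcN. The row of NPM1 had a mean log2 level of only 4.62, the lowest of the 5, so its differences are less certain. FBL, the methyltransferase of the box C/D particles, kept within log2 levels of 10.68 to 10.84 on all 18 arrays.

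The RefSeq promoter table (GRCh38.p14) held 39 of the 44 factors, all but RRS1, BOP1, NOP58, NOLC1 and RRP12, with 250 bases before and 50 after each start site. Since many of the genes are known MYC targets, the E-box CACGTG that MYC binds was searched, a sequence that reads the same on both strands. In the bases before the start it occurred in 5 of the 39 (12.8%), against 10.6% of the 12157 tested genes in the table. With the 50 bases after the start included, a window chosen after the sequences were seen, 17 of the 39 (43.6%) held it, against 11.8% of tested genes and 8.77% of the 27305 genes in the table. The motif CCGGAAG, the core of ETS family sites, was also picked after seeing the sequences. It or its other strand, CTTCCGG, lay before the start in 15 of the 39 (38.5%), against 16.0% of tested genes and 10.2% of the table; the motifs do not overlap in letters. A gene with more than one start in the table counts once. The windows below are those of the called factors, of NIP7 and GTPBP4, and of UTP14A, NOL6 and RRP9, which are among the largest ST over EcN differences at one or both times; capitals mark the motif.
GRWD1, ETS motif, chr19:48445948-48445977, plus strand: gaaagcgaaacCCGGAAGtgacgctcttac
TSR1, ETS motif, chr17:2336467-2336496, minus strand: cttggaggggaCCGGAAGcgcttgtcctgg
WDR74, ETS motif, chr11:62839587-62839616, minus strand: cacacgctgcgCCGGAAGtgtgaactgtct
GTPBP4, ETS motif, chr10:988366-988395, plus strand: tggctgagctcCCGGAAGtgacgtacctca
NIP7, ETS motif on the other strand, chr16:69339566-69339595, plus strand: acgtcacttccCTTCCGGaccacaaggggc
NOP2, E-box, chr12:6568242-6568271, minus strand: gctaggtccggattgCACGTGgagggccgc
MRTO4, E-box, chr1:19251807-19251836, plus strand: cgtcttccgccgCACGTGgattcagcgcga
RRP9, E-box, chr3:51941892-51941921, minus strand: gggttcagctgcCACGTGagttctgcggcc
NOL6, E-box, chr9:33473894-33473923, minus strand: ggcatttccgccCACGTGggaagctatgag
UTP14A, E-box, chrX:129905914-129905943, plus strand: accttgggcCACGTGgaaaccaggggccag
Counted from the start site, the ETS motif begins 24 bases before it in GRWD1, 28 in TSR1 and 15 in WDR74, and the E-box begins at base 15 after it in MRTO4 and base 36 in NOP2. These are matches of letters and show no binding.

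Transcripts of MYC itself were not called in any comparison. Its log2 levels were 7.40, 7.52 and 7.43 in mock at 60 min, 7.32, 7.23 and 7.53 with EcN and 7.08, 6.96 and 7.94 with ST, and at 120 min 7.83, 7.43 and 7.42 in mock, 6.79, 7.21 and 7.31 with EcN and 7.14, 7.16 and 7.36 with ST. The groups overlapped at 60 min, and at 120 min the flagellin arrays all lay below the mock arrays. Of 10 MYC network genes measured, MAX, the partner of MYC, fell with EcN at 60 min by 0.49 ± 0.14 on the log2 scale. MNT, a repressor that competes for MAX, fell with ST at 60 min by 0.63. Over all genes 3.37% were called lower with EcN and 3.03% with ST at that time.

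At 120 min the largest differences from mock were those of RRS1 and GRWD1, the genes the list was chosen on, and with ST those of the small-subunit factors UTP14A (0.81) and RRP9 (0.63) came next. RRS1 (transcript cluster 17069545), which brings the 5S particle to the large subunit, had log2 levels of 7.54, 6.51 and 7.47 in mock, of 8.29, 8.43 and 8.28 with EcN and of 8.05, 8.31 and 8.02 with ST. Every flagellin array lay above every mock array, and mock B lay about 1 log2 unit under its fellows. The differences from mock were 1.16 ± 0.20 with EcN and 0.95 ± 0.20 with ST, or 0.83 and 0.62 without mock 120 min B. GRWD1 stood at 8.89, 8.45 and 9.31 in mock, at 9.62, 9.58 and 9.56 with EcN and at 9.72, 9.65 and 9.85 with ST, differences of 0.70 and 0.86. TSR1 stood at 8.79, 8.52 and 8.84, at 9.11, 9.04 and 9.10 and at 9.20, 9.09 and 9.15, differences of 0.37 and 0.43.

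As a description of the chosen genes, those past the call threshold at 120 min were RRS1 with EcN, and GRWD1, RRS1 and TSR1 with ST. Leaving aside RRS1 and GRWD1, the remaining 42 factors had 0 past it with EcN (7 higher and 1 lower before adjustment, p under 0.05) and 1 with ST (TSR1). Over all genes 0.0248% were called higher and 0.0372% lower with EcN, and 0.31% higher and 0.248% lower with ST. Before adjustment 1327 of the 16111 genes were higher and 1334 lower with EcN. All flagellin arrays lay above all mock arrays in 8 of these 42 with EcN and 16 with ST, and in 8.52% and 8.81% of all genes; since the list was chosen on this comparison, nothing is read from these shares. The median of the 44 was 0.09 with EcN, 29 of them above 0, and 0.24 with ST, 41 above 0. Both comparisons share the 3 mock arrays. The EcN median was 0.01 without mock 120 min B and 0.16 without mock 120 min A. Over all 44, the ST count of 3 ran from 0 without mock 120 min B to 15 without mock 120 min A, the array with the NF-kB response, and the EcN count of 1 reached 6 without mock 120 min C.

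RRS1 was the one called factor with EcN and ST on opposite sides of mock at 60 min. Its log2 levels there were 7.69, 7.71 and 7.50 in mock, 7.13, 7.18 and 7.49 with EcN and 8.08, 7.89 and 8.13 with ST. The EcN arrays lay wholly below mock and the ST arrays wholly above, with differences of -0.37 ± 0.20 (limma adjusted p = 0.267) and 0.40 ± 0.20 (limma adjusted p = 0.254). The EcN difference was higher at 120 than at 60 min by 1.53 ± 0.28, and the ST difference by 0.56. The EcN change was the largest among the 44, but it contains the 120 min comparison that RRS1 was chosen on. Its rank therefore describes the choice, and mock 120 min B was the lowest array for RRS1. No factor and 0% of all genes were called for either change.

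**Figure D3:**
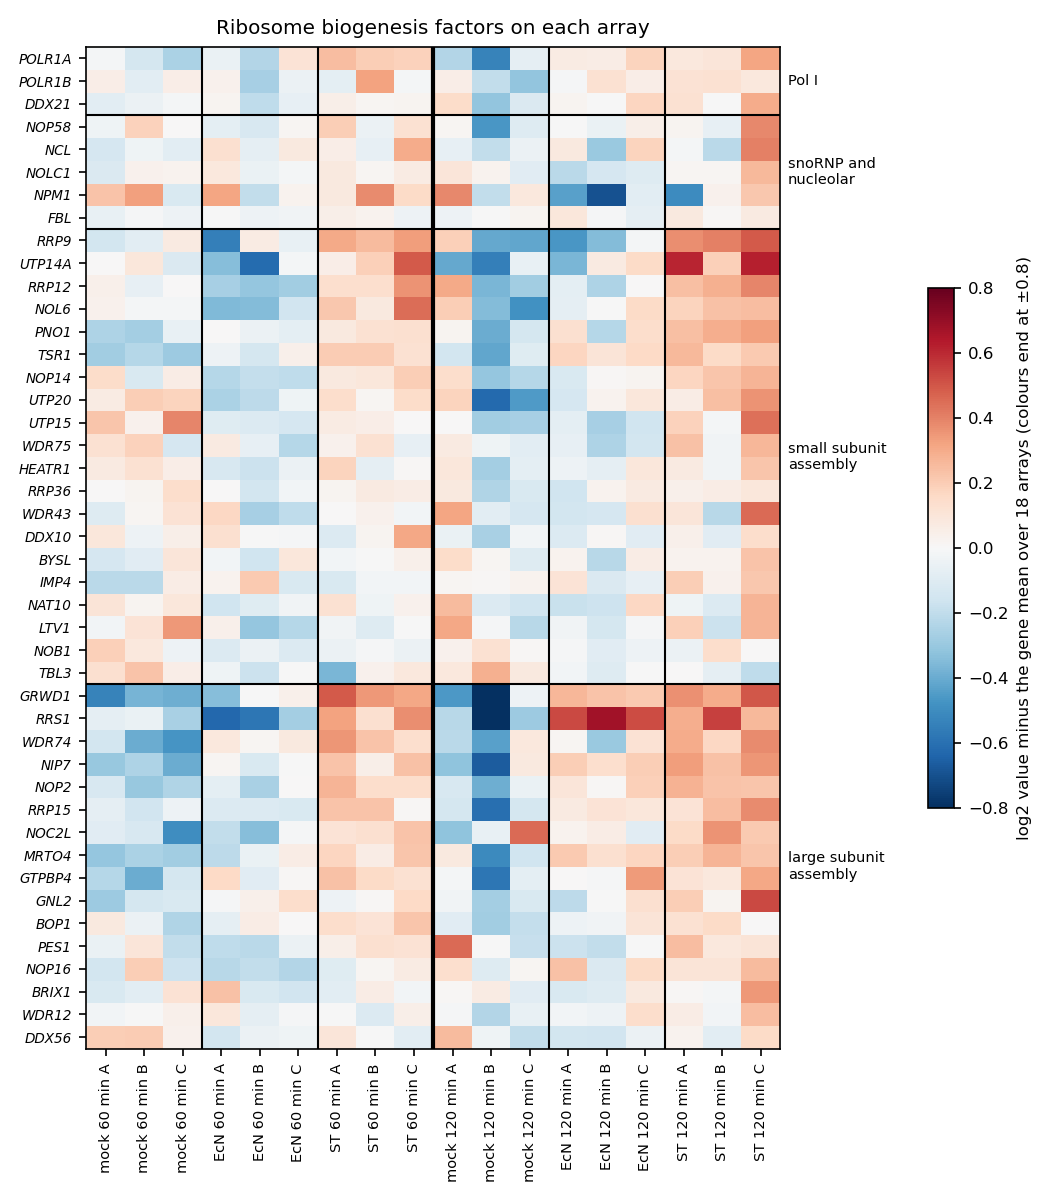
Each row is 1 of the 44 factors and each column 1 array, coloured by the log2 level minus the mean of that gene over 18 arrays, with colours ending at 0.8 above and below; rows are grouped by role, columns by time and treatment. Mock 120 min B is the bluest column, the lowest array for 21 of the 44, and ST 120 min C the reddest, the highest for 26.

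ST and EcN were also set against each other, in differences that use no mock array and did not themselves enter the choice. At 120 min they share the flagellin arrays on which RRS1 and GRWD1 were chosen, so the 120 min values are described only. Since the list was chosen with earlier results of these data known, the 60 min values are no independent evidence of direction either. At 60 min 39 of the 44 factors lay above 0, with a median of 0.15, and at 120 min 42 did, with a median of 0.14, against medians of -0.01 and 0.00 over all genes. None was called at either time, and 0% of all genes were. At an unadjusted p under 0.05 limma gave 12 and 10 factors higher and none lower. Of the 16111 genes, 670 were higher and 811 lower at 60 min by that measure, and 854 higher and 1028 lower at 120 min. All ST arrays lay above all EcN arrays in 22 factors at 60 min and 16 at 120 min, where 8.14% and 10.5% of all genes did. The largest differences at 60 min were those of RRS1 (0.77 ± 0.20, limma adjusted p = 0.308) and of the processome proteins UTP14A (0.57 ± 0.18) and NOL6 (0.53 ± 0.14), followed by RRP12 (0.49 ± 0.14), an export factor of the small subunit. At 120 min RRP9, a protein of the U3 particle that guides the first cuts, led with 0.70 ± 0.17 (limma adjusted p = 0.185). Its levels there were 6.98, 7.10 and 7.43 with EcN and 7.82, 7.85 and 7.94 with ST, with 7.64, 7.04 and 7.03 in mock, so that only the ST arrays stood above all of mock. UTP14A differed between ST and EcN by 0.52 ± 0.18 at that time.

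Averaged over the 44 factors, the ST arrays stood highest at both times. Each array's score is the mean deviation of the 44 from their own 18-array means, on the log2 scale. The 44 include RRS1 and GRWD1, which were chosen on the 120 min arrays, so the order of the 120 min scores is described only. At 60 min the scores were -0.05, -0.04 and -0.06 in mock, -0.08, -0.15 and -0.05 with EcN, and 0.09, 0.08 and 0.13 with ST. At 120 min they were 0.03, -0.28 and -0.11 in mock, -0.02, -0.06 and 0.08 with EcN, and 0.14, 0.10 and 0.27 with ST. To 2 decimals 5 of the 6 ST arrays exceeded all 12 others, and ST 60 min B equalled EcN 120 min C. The median deviation of all genes ranged only from -0.03 to 0.02. Mock 120 min B was the lowest array for 21 of the 44 factors and for 11.2% of all genes, and ST 120 min C the highest for 26 and for 7.07%. Without flagellin no factor was called between 60 and 120 min, as for 0% of all genes, although UTP15, UTP20 and RRS1 were lower at 120 min, and none higher, before adjustment (p under 0.05). Of the 16111 genes, 988 were lower and 962 higher before adjustment.

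**Figure D4:**
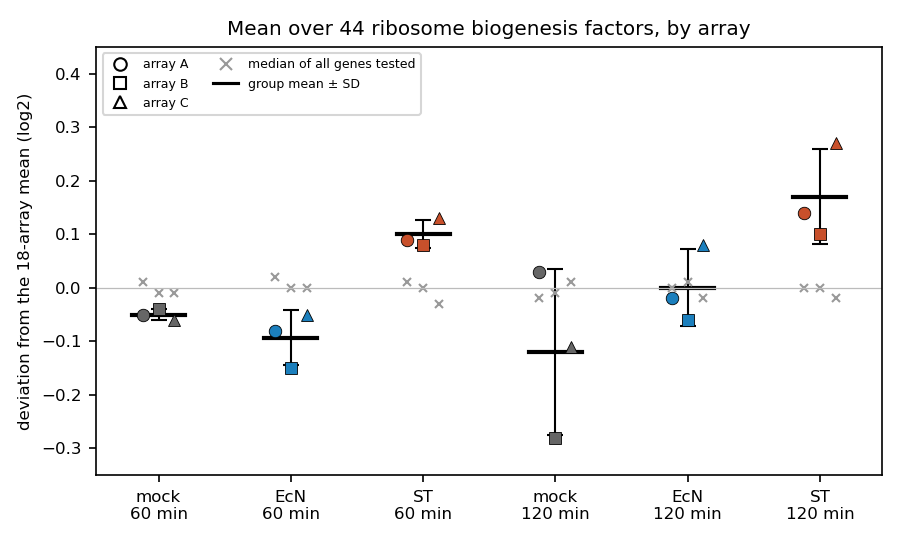
Mean deviation of the 44 factors from their 18-array means (y axis, log2) for each array, by group; circles, squares and triangles are arrays A, B and C, black bars the group mean ± SD (n = 3), crosses the median deviation of all genes tested. The 6 ST arrays lie between 0.08 and 0.27, at or above the highest of the other 12. Mock 120 min spreads from -0.28 to 0.03. RRS1 and GRWD1, chosen on the 120 min arrays, are among the 44.

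Across the 18 arrays, which share groups and processing, most factors varied together. The 18 include the 120 min arrays on which RRS1 and GRWD1 were chosen, so the likeness of these genes partly describes the choice. RRS1 and GRWD1 had a Pearson r of 0.78 and a Spearman rho of 0.64, and r was 0.64 without mock 120 min B and EcN 60 min A, the arrays farthest from the median of RRS1. Of the other 43 factors, 21 had r above 0.5 with RRS1 (48.8%, against 8.19% of all genes) and 18 with GRWD1 (41.9%, against 11.7%). After the group means were taken out these were 11 (25.6%, against 6.97%) and 9 (20.9%, against 6.46%). With the mean of the other factors, 31 of 44 had r above 0.5 (70.5%, against 9.4% of all genes), and 27 after the group means were taken out (61.4%, against 9.81%). TSR1 (0.95), NIP7 (0.94), NOP2 (0.89) and MRTO4 (0.89) followed GRWD1 most closely, and RRP15 (0.82) followed RRS1. TBL3, a processome WD-repeat protein, ran against the mean of the others (-0.47), and so did NOB1 (-0.16). Among genes outside the list, those nearest in pattern to the factors' mean were PSMD12, a proteasome lid subunit (0.96), CCDC86 (0.94), HSPH1, a heat shock chaperone (0.93), and PAK1IP1, a nucleolar WD-repeat protein (0.90).

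Further genes of the pathway, listed apart from the 44, are named here where they were called at 60 min. Over all genes 2.23% were called higher and 3.03% lower with ST, and 3.08% higher and 3.37% lower with EcN. Few were called in any list, and no direction of the pathway is read from them. Of 42 other small-subunit factors, UTP3 rose with ST (0.77), while NOL11 fell with EcN and ST by 0.64 and 0.57 on the log2 scale. Of 41 other large-subunit factors, REXO4 rose with EcN (0.76) and ST (0.78), LAS1L rose with ST (0.48) and NOP53 with EcN (0.35), while NOL9 fell by 0.61 with EcN and 0.43 with ST, and TEX10 fell by 0.42 with EcN. LAS1L and NOL9 encode the nuclease and the kinase of one complex that cuts the spacer before 28S. With ST at 60 min they differed from mock in opposite directions, but both depended on which mock arrays were used. NOL11 stood at 10.26 to 10.47 in mock at 60 min and at 10.36 on mock 120 min A, but at 9.87 and 9.77 on mock 120 min B and C, next to 9.53 to 10.10 on the flagellin arrays. NOL9 was split alike, at 9.01 to 9.14 in mock at 60 min and 8.96 on mock 120 min A. It stood at 8.55 and 8.45 on mock 120 min B and C, next to 8.40 to 8.79 on the flagellin arrays. LAS1L (8.98) and REXO4 (7.29) reached flagellin levels on mock 120 min C but not on A or B. The split of NOL11 and NOL9 is that seen for IFI44L, and the part of these mock arrays in the differences was not tested. Of 13 other polymerase I genes, POLR1D rose with ST (0.50). Of 12 snoRNP core and assembly genes, ZNHIT3 fell with ST by 0.51, and of 13 exosome genes none was called.

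Ribosomal protein and nucleotide synthesis genes were listed as well. Over all genes 3.08% were called higher with EcN and 2.23% with ST at 60 min, and 0.0248% and 0.31% at 120 min. Of 47 cytosolic ribosomal protein genes, 5 rose with EcN at 60 min (RPS6, RPS15A, RPL24, RPL37 and RPS21) and 2 with ST (RPS6 and RPL12), and none fell; many have near-identical pseudogenes, so their levels are uncertain. At 120 min none was called, and with EcN their median was -0.13, with 32 of 47 below 0. RPS15A stood at 6.74 to 7.14 in mock at 60 min and at 6.99 on mock 120 min A. On mock 120 min B and C it stood at 7.61 and 7.76, next to 7.17 to 8.07 on the flagellin arrays. The part of these mock arrays in its rise was not tested. Of 16 nucleotide synthesis genes DHODH, an enzyme of pyrimidine synthesis, rose with EcN (0.74) and ST (0.80) at 60 min. On mock 120 min A, B and C, DHODH stood at 5.98, 5.56 and 6.48, next to 6.18 to 6.63 on the flagellin arrays. UMPS, which completes the pyrimidine ring nucleotide, was higher at 120 min with EcN (0.77) and ST (0.61). At 120 min no other gene of these pathway lists was called in either comparison with mock.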

How the data were processed

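The authors deposited log2 values made by RMA; the submitters' processing notes also name oligo 1.30.0, an R package, and no genome build. They were used as deposited. Of 53617 array rows, 23871 carry 1 gene symbol in the platform annotation, 1842 several, and 27904 are not listed. Rows of 1 symbol above their array's median on at least 3 of 18 arrays were kept, and the row with the highest mean stood for its gene. limma 3.58.1 in R 4.3.3 fitted 6 group means over all 18 arrays (12 residual and 4.20 prior degrees of freedom). The fit was tested on simulated data. The number of arrays limits the precision. The members, gene lists and tests were chosen with earlier results of these data known, so the lists are no independent evidence of direction. Named genes were all called members, those next to the threshold or with the largest differences, and called genes of the other lists; complexes were named by known role. Alternatives covered normalization, filters, array weights, blocks and left-out arrays. The letters A, B and C were not used as pairs in the main fit. Arrays of the same letter were not alike across all groups, although the flagellin arrays lettered C shared high NFKBIA levels.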

Additional observations from a re-analysis of the deposited data

How the results depend on the processing

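Alternatives in the 60 and 120 min comparisons turned no called factor's direction. Leaving out 1 array at a time gave 0 to 1 called factors for EcN over mock at 60 min, 0 to 7 for ST over mock at 60 min, 0 to 6 for EcN and 0 to 15 for ST over mock at 120 min, 0 to 3 for mock 120 over mock 60 min, 0 to 3 for the change of the EcN effect and 0 to 1 for that of the ST effect. The medians of the factors then ran from -0.08 to 0.01 for EcN and 0.07 to 0.13 for ST over mock at 60 min, from 0.01 to 0.16 for EcN and 0.17 to 0.34 for ST over mock at 120 min, and from -0.14 to -0.01 for mock 120 over mock 60 min.

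For ST at 60 min the count was 8 with array weights, 0 when all C arrays were left out, 1 when mock 120 min A went with them; for EcN at 60 min it was 1 with array weights. The median for ST at 60 min was 0.16 after repeated quantile normalization. For EcN at 120 min the count was 0 with the replicate block, with the compared groups alone and with no filter, and 3 with trend and robust settings. For ST at 120 min it was 0 with the compared groups alone and without the arrays lettered C, 1 with no filter, 2 with the replicate block, 5 with centred arrays, 7 with array weights or a filter on all 18 arrays, 8 without the C arrays and mock 120 min A, and 11 with trend and robust settings. The replicate block gave 4 called factors for ST at 60 min. Without the C arrays and mock 120 min A the medians were 0.20 for EcN and 0.34 for ST at 120 min, -0.22 for mock 120 over mock 60 min and 0.24 for the change of each effect; the change of the EcN effect then had 1 called factor, as it did with array weights. The share of promoters with an E-box was 43.6% once the 50 bases after the start were added. Some of these fits had fewer arrays, and the causes of the shifts were not tested.

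Same-letter arrays had deviation correlations of -0.24 to 0.27, and no comparison had all 3 pairs above 0.1. Between ST and EcN these correlations were all positive, from 0.05 to 0.14 at 60 min and from 0.07 to 0.27 at 120 min. Of 29 alternatives the call was lost in 3 for GRWD1, 7 each for TSR1 and WDR74, 8 for NOP2 and 20 for MRTO4 at 60 min, and the adjusted p reached 0.0711, 0.124, 0.113, 0.170 and 0.288 in limma. Calls over mock at 120 min were lost in 19 for RRS1 with EcN, and with ST in 20 each for RRS1 and TSR1 and 7 for GRWD1. Over all genes the number called ran from 0 to 2176 for EcN and from 32 to 1957 for ST at 60 min, and from 0 to 1177 and 0 to 905 at 120 min.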
